A study of Homo sapiens with 4 samples.

Results

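The adducin, spectrin and ankyrin genes ADD1, ADD3, SPTAN1, SPTBN1, ANK2 and ANK3 were followed through every alternative splicing event deposited under their symbols. The 6 genes were chosen by name after the inclusion values of some of their exons in these same libraries were known, so the differences between RBFOXi and SCRM below are a description of them. They held 94 of the 121269 deposited events. ADD1 had 44, SPTAN1 16, ADD3 12, ANK2 11 and ANK3 11, and no event of SPTBN1, a beta spectrin, stood in the tables used here. By type, 71 were skipped exons, 20 mutually exclusive exon pairs, 2 alternative 3′ splice sites and 1 an alternative 5′ splice site, and none was a retained intron.

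The libraries came from U87MG, a glioblastoma cell line, transfected by Lipofectamine with an RNA oligonucleotide at 2.5 µM. RBFOXi (2 libraries) is a decoy that carries repeats of the motif bound by the splicing factors RBFOX1 and RBFOX2, and SCRM (2 libraries) is the control oligonucleotide. The labels name a Cy5 dye on the oligonucleotide of RBFOXi replicate 1 and no dye on that of RBFOXi replicate 2 or of either SCRM library. The methods of the study describe the 2 libraries of each group as independent biological replicates.

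Spectrin tetramers form a flexible lattice under the plasma membrane. Adducins cap actin filaments and recruit spectrin to them, and ankyrins tie spectrin to membrane proteins such as ion transporters and cell adhesion molecules. All 3 families make many protein forms by alternative splicing, several of them preferred in neurons. RBFOX proteins bind UGCAUG in introns. A site downstream of an exon is commonly linked to its inclusion, and a site upstream to its skipping.

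The sequences below show the introns and exons of the members that differed most and of the last cassette exon of ADD1. Exons with the motif at a like distance and little difference are also shown. The introns and exons were read from GRCh37 (hg19), and the capitals mark UGCAUG. The ADD3 exon of 96 nt is exon 14 of the canonical transcript, the last but one, is wholly coding and is present in 1 of the 3 coding transcripts. The ANK2 exon of 93 nt is wholly coding and present in 14 of 83 coding transcripts. The SPTAN1 exon of 60 nt is exon 23 of the canonical transcript and coding, in 8 of 19 coding transcripts. The ADD1 exon of 34 nt lies, like the ADD3 exon of 96 nt, just before the last exon of its gene. It is present in 4 of 14 coding transcripts and absent from the canonical one, and it was not aligned with the ADD3 exon.
ADD3 intron before the 96 nt exon, chr10:111892003-111892062, plus strand: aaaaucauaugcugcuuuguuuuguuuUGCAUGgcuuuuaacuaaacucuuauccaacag
ADD3 96 nt exon, chr10:111892063-111892158, plus strand: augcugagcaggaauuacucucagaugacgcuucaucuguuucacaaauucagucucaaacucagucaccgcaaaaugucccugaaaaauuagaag
ADD3 intron before the 152 nt exon, chr10:111875957-111876016, plus strand: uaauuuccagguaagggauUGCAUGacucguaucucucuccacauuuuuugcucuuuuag
ANK2 93 nt exon, chr4:114293689-114293781, plus strand: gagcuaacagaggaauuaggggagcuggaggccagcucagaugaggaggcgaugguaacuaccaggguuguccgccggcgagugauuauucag
ANK2 intron after the 93 nt exon, chr4:114293782-114293901, plus strand: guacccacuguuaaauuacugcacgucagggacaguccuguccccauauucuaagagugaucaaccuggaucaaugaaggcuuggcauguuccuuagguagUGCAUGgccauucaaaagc
SPTAN1 intron before the 60 nt exon, chr9:131355162-131355261, plus strand: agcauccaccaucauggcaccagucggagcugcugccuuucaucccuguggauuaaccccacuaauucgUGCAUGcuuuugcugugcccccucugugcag
SPTAN1 60 nt exon, chr9:131355262-131355321, plus strand: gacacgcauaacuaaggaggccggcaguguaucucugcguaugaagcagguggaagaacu
ADD1 intron before the 34 nt exon, chr4:2928309-2928368, plus strand: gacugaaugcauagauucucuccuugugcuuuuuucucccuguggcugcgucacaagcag
ADD1 34 nt exon, chr4:2928369-2928402, plus strand: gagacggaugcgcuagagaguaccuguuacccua

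Inclusion is given as PSI, the proportion of transcripts spliced across the event that carry the exon. It runs from 0 to 1 and was computed per library from the counts that fit each form, each divided by the effective length of that form. Delta PSI is the mean of the RBFOXi libraries minus the mean of the SCRM libraries. The 71 skipped exon events lay at 52 distinct exons. Of these, 35 events at 28 exons had enough reads to be tested. The minimum was 5 counts in each library, 20 on average, and 4 for either form in all. The filter asks for reads of both forms, so fully constitutive exons were left out. Among the 28 tested exons, 16 were near constitutive in the SCRM libraries (mean PSI above 0.95), 6 were intermediate (0.05 to 0.95) and 6 were rare (below 0.05). The other 24 exons were not tested.

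Coverage of these genes was uneven along their length in 1 library. Relative to the total counts of each library, the ratio of SCRM replicate 1 to SCRM replicate 2 climbed along SPTAN1 from 0.0949 at its first measured exon to 2.13 at its last (15 exons). It climbed from 0.295 to 0.943 in ADD1, from 0.113 to 0.285 in ADD3 and from 0.0313 to 0.437 in ANK2. The ratio of RBFOXi replicate 1 to replicate 2 stayed between 1.03 and 1.22 in SPTAN1, between 1.08 and 1.20 in ADD1, between 1.78 and 2.01 in ADD3 and between 0.651 and 1.41 in ANK2. Inclusion counts of near constitutive exons, scaled to effective length and to the total counts of the library, had a median in ADD3 of 38.4 and 19.1 with RBFOXi and 4.30 and 37.05 with SCRM. In SPTAN1 this measure was 83.9 and 73.5 with RBFOXi and 35.5 and 73.3 with SCRM. SCRM replicate 1 was the lowest for both genes. Fewer cells with a transcript and less RNA per cell cannot be told apart in these bulk libraries. The part of the uneven coverage in these medians was not tested, and no difference in expression is read from them. Values of the leading exons without SCRM replicate 1 are therefore given beside the results.

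**Figure D1:**
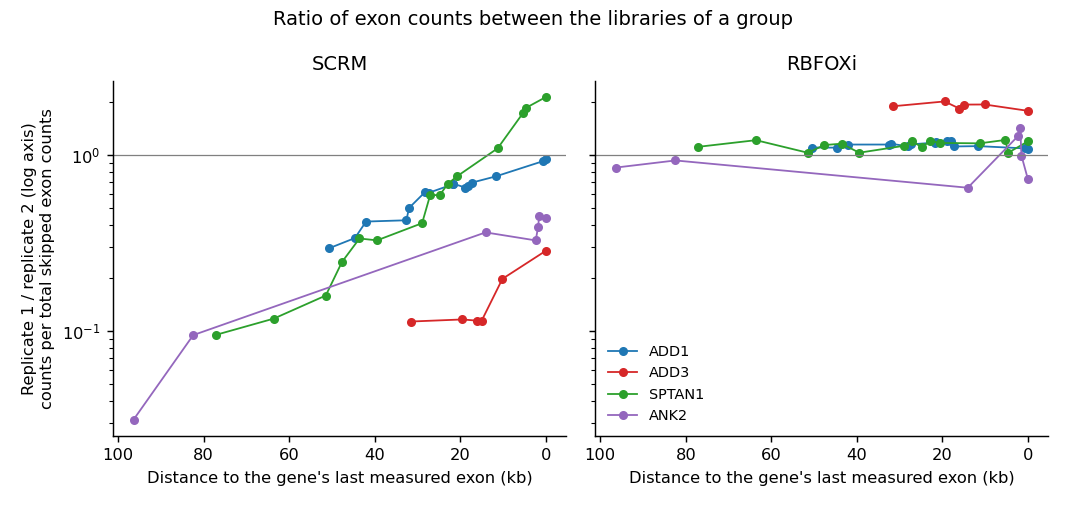
Ratio of replicate 1 to replicate 2 in counts per exon, each scaled to the total of its library (log vertical axis), against the distance in kb to the last measured exon of the gene, for SCRM (left) and RBFOXi (right). The SCRM ratio climbs toward the 3′ end in ADD1, ADD3, SPTAN1 and ANK2, and the RBFOXi ratio shows no such climb in ADD1 or SPTAN1.

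In a limma fit of the log2 inclusion odds over all 39615 tested skipped exon events, 1 of the 35 was called changed (adjusted p under 0.05 and absolute delta PSI of at least 0.1), against 0.0682% of all tested events. An absolute delta PSI of 0.1 or more was seen in 3 of the 35, against 4.83% of all tested events. The groups did not overlap in 10 of the 35 events, with RBFOXi lower in 7 and higher in 3, against 30.8% of all tested events. Since the genes were proposed with this contrast in view, nothing is read from these counts. The call of ADD3 was lost with a pseudocount of 0.1 in place of 0.5, and also without SCRM replicate 1, without SCRM replicate 2 or without RBFOXi replicate 2, and the count of called members then ranged from 0 to 1. Without RBFOXi replicate 2 the 1 call was ANK2 instead. With the replicate number as a block in the fit, 2 of the 35 were called, the ADD3 exon of 96 nt and the ANK2 exon of 93 nt.

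**Figure D2:**
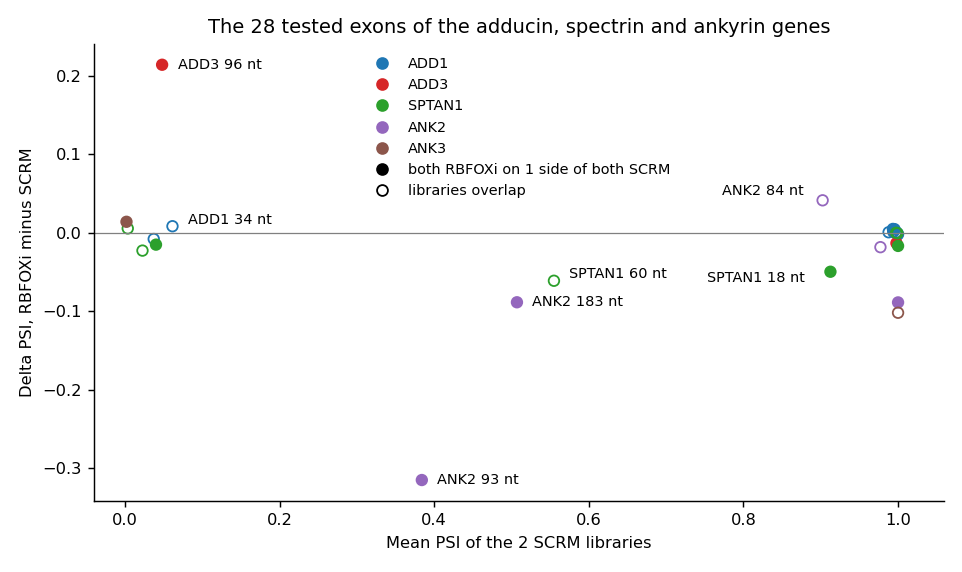
Delta PSI of the 28 tested exons (vertical axis, RBFOXi minus SCRM) against the mean PSI of the 2 SCRM libraries (horizontal axis), 1 point an exon, coloured by gene; filled points are exons whose groups of libraries did not overlap. The ADD3 exon of 96 nt stands apart at 0.214 and the ANK2 exon of 93 nt at -0.315, and most other points lie near 0.

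ADD3 encodes gamma adducin, a widely expressed partner of alpha adducin. PSI of its 96 nt exon was 0.207 and 0.318 in the RBFOXi libraries and 0.0435 and 0.0528 in the SCRM libraries. Both RBFOXi libraries lay above both SCRM libraries, by more than the gap within either pair. The values rest on 457 and 280 counts with RBFOXi and on 72 and 299 with SCRM, and in SCRM replicate 1 only 6 of the 72 were inclusion counts. The group means were 0.263 ± 0.0780 for RBFOXi and 0.0481 ± 0.00660 for SCRM (SD, n = 2 each), a delta PSI of 0.214. On the log2 odds scale the exon rose by 2.73 (SE 0.42), with an adjusted p of 0.0289 in limma over all skipped exon events. Without SCRM replicate 1, delta PSI was nearly the same, at 0.210 (adjusted p = 0.409 in limma). That fit has a single SCRM library, which is assumed to vary like the RBFOXi libraries. Why the call was lost there was not tested. The UGCAUG printed above begins 33 nt before this exon, and none stood in the first 300 nt after it. The exon length is a multiple of 3, so the exon adds residues without shifting the frame.

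The only other tested ADD3 exon, of 152 nt, is near constitutive. Its PSI was 0.991 and 0.978 with RBFOXi and 1 and 0.996 with SCRM, on 652, 388, 66 and 683 counts. The RBFOXi libraries lay just below the SCRM libraries, by 0.0132 in the mean, and limma did not call the exon (adjusted p = 0.9999). It too has a UGCAUG upstream, beginning 41 nt before the exon, but at a PSI this close to 1 it had no room to rise as the 96 nt exon did. The other 4 ADD3 exons had too few skipping counts to be tested. Over all their events the lowest PSI was 0.971, in an event of the 81 nt exon in RBFOXi replicate 2.

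ADD1 encodes alpha adducin, the subunit that pairs with beta or gamma adducin. Its 34 nt exon, which shifts the reading frame, had a PSI of 0.0510 and 0.0887 with RBFOXi and 0.0562 and 0.0669 with SCRM. The groups overlapped, on at least 1166 counts in every library, and delta PSI was 0.00835. It was 0.0272 without RBFOXi replicate 1 and turned to -0.0105 without RBFOXi replicate 2. No UGCAUG stood within 300 nt on either side. The last cassette exons of ADD1 and ADD3 each lie just before the last exon of their gene, but were not aligned as counterparts. In the annotation, coding sequence overlaps the 34 nt exon, but the exon is wholly coding in 0 transcripts. Its effect on the protein was not examined. The ADD3 exon of 96 nt is wholly coding in 1 transcript, and its length is a multiple of 3. Both were rare or nearly so in SCRM cells, and they differed in their values with RBFOXi. That difference between the genes was not tested.

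Another rare coding exon of ADD1, of 93 nt, was named after its values were seen. Its PSI was 0.0185 and 0.0401 with RBFOXi and 0.0447 and 0.0299 with SCRM, with overlapping groups, and a UGCAUG begins 92 nt before it. ADD1 also chooses between 5′ splice sites at the end of a coding exon, which is 345 nt long with the distal site and 252 nt with the proximal site. PSI of the longer form was 0.0606 and 0.0542 with RBFOXi and 0.0818 and 0.0914 with SCRM. Both RBFOXi libraries lay below both SCRM libraries, with a delta PSI of -0.0292 on 1421 to 2633 counts. Of 2281 tested alternative 5′ splice sites of all genes, limma called 0 (0% of them), this one included, which had an unadjusted p of 0.00815 and an adjusted p of 0.995. In the tested event with the most counts for each, the 9 near constitutive exons of ADD1 had a lowest PSI of 0.982 in any library. Their delta PSI there ranged from -0.00259 to 0.00489. Other tested events of the 163 nt exon reached a PSI of 0.976 in SCRM replicate 1 and a delta PSI of -0.00285.

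SPTAN1 encodes alpha-II spectrin, the non-erythroid alpha chain. Its 60 nt exon, which inserts residues beside the SH3 domain, had a PSI of 0.433 and 0.554 with RBFOXi and 0.494 and 0.616 with SCRM. The groups overlapped, and the replicates of each group lay further apart (SD 0.0854 and 0.0859) than the group means (delta PSI -0.0612). Counts were high, between 421 and 1523 per library. With 1 library left out, delta PSI ranged from -0.122 (without SCRM replicate 1) to -0.000483 (without SCRM replicate 2). A UGCAUG begins 31 nt before this exon, almost the same place as in ADD3. An exon with the motif at that distance had a delta PSI of 0.214 in ADD3 and a difference within the replicate spread in SPTAN1.

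SPTAN1 has an 18 nt exon near its 3′ end, exon 51 of the canonical transcript. Its PSI was 0.848 and 0.877 with RBFOXi and 0.922 and 0.903 with SCRM. Both RBFOXi libraries lay below both SCRM libraries, with a delta PSI of -0.0497 on 132 to 207 counts. The short exon has an effective length of 11 for inclusion against 48 for skipping, so its level depends on how PSI is computed. As a plain share of inclusion counts it was 0.561 and 0.621 with RBFOXi and 0.729 and 0.682 with SCRM, a difference of -0.114 with the groups again apart. The 18 nt exon was not called (adjusted p = 0.9999 in limma). The 15 nt exon of SPTAN1, exon 37, was named after its values were seen. It was rare, at 0.0301 and 0.0201 with RBFOXi and 0.0403 and 0.0401 with SCRM, on only 6 to 12 inclusion counts a library. The 3 near constitutive exons of SPTAN1 had a PSI of at least 0.973 in every library.

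ANK2 encodes ankyrin-B, which places ion transporters and other membrane proteins. Its 93 nt exon had a PSI of 0.0379 and 0.0993 with RBFOXi and 0.357 and 0.411 with SCRM. Both RBFOXi libraries lay far below both SCRM libraries, with means of 0.0686 ± 0.0434 and 0.384 ± 0.0386 (SD, n = 2 each) and a delta PSI of -0.315. Counts were low, at 130 and 111 with RBFOXi and 50 and 181 with SCRM. The log2 odds differed by -3.19 (SE 0.58), with an adjusted p of 0.0884 in limma, just outside the threshold that ADD3 passed with 0.0289. Without SCRM replicate 1, delta PSI was -0.343 (adjusted p = 0.602 in limma, with the same assumption). A UGCAUG begins at nucleotide 102 of the intron after the exon, and none lay in the 300 nt before it. The exon is a multiple of 3 in length.

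The exons that follow in ANK2 differed less between the groups. The 84 nt exon had a PSI of 0.958 and 0.929 with RBFOXi and 0.933 and 0.872 with SCRM, with overlapping groups and only 1 to 6 skipping counts a library. Its inclusion counts include the junction that skips the 93 nt exon, so it is not separate evidence from that exon. The 183 nt exon had a PSI of 0.443 and 0.394 with RBFOXi and 0.524 and 0.490 with SCRM, a delta PSI of -0.0887 with the RBFOXi libraries below both SCRM libraries. It was not called (adjusted p = 0.9999 in limma). Measured from another upstream exon, the same 183 nt exon had a delta PSI of -0.0196, so its value depends on the neighbours that define the event.

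The 84 nt and 183 nt exons were also deposited as a mutually exclusive pair. The share of the 84 nt exon was 0.735 and 0.561 with RBFOXi and 0.421 and 0.450 with SCRM. Both RBFOXi libraries lay above both SCRM libraries, with a delta PSI of 0.213. This event is not separate evidence from the 93 nt exon. Its 124, 94, 25 and 73 counts for the 84 nt exon include the junction that skips the 93 nt exon, which gave 120, 90, 23 and 73 skipping counts in the same libraries. The adjusted p was 0.99998 in limma. Of 26176 tested mutually exclusive pairs of all genes 0 were called (0%), among them the 19 of the 6 genes, of which 1 had an unadjusted p under 0.05. The quasi-binomial F test called 0 of the 19 and did not call the 5′ splice site of ADD1.

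A 75 nt exon of ANK2, near constitutive, had a PSI of 0.954 and 0.868 with RBFOXi and 1 in both SCRM libraries, on 68, 114, 27 and 88 counts. The RBFOXi libraries lay below the SCRM libraries, of which replicate 1 rests on 27 counts. This exon was not called (adjusted p = 0.9999 in limma). A 33 nt exon with a UGCAUG beginning 24 nt before it had 5, 15, 4 and 38 counts and was not tested.

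ANK3 encodes ankyrin-G, the organiser of the axon initial segment, and was thinly covered. Its exon of 7812 nt is the giant exon of the neuronal forms. PSI was 0.00516 and 0.0270 with RBFOXi and 0 and 0.00413 with SCRM, on 36, 82, 5 and 33 counts. The RBFOXi libraries lay above both SCRM libraries, but SCRM replicate 1 rests on 5 skipping counts and no inclusion count. Delta PSI was 0.0140 and the exon was not called (adjusted p = 0.9999 in limma). With 1 library left out, delta PSI ranged from 0.00309 (without RBFOXi replicate 2) to 0.0249 (without RBFOXi replicate 1). The effective length is 7855 for inclusion and 57 for skipping, so PSI is far below the plain share of inclusion counts, which was 0.417 and 0.793 with RBFOXi and 0 and 0.364 with SCRM, a difference of 0.423. A 99 nt exon of ANK3 had a PSI of 0.796 in RBFOXi replicate 2 and 1 in each of the other libraries, on 16 to 44 counts. The other 4 ANK3 exons were not tested.

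**Figure D3:**
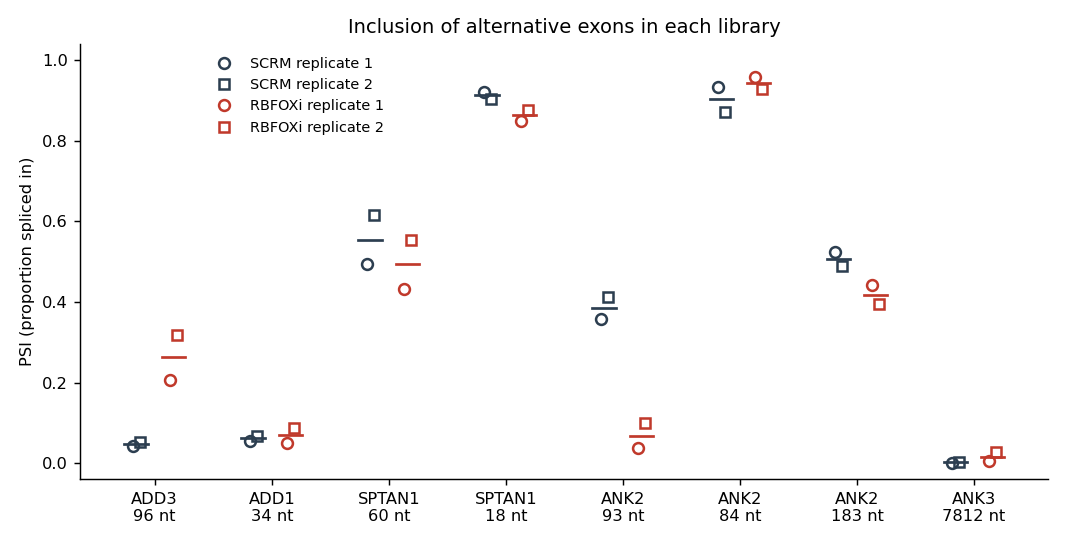
PSI (vertical axis, 0 to 1) of 8 exons in each of the 4 libraries; circles are replicate 1, squares replicate 2 and short lines the group means. The RBFOXi points lie above the SCRM points for the ADD3 exon of 96 nt, far below them for the ANK2 exon of 93 nt and among them for the SPTAN1 exon of 60 nt and the ADD1 exon of 34 nt.

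Across the 6 intermediate exons, that is 1 of ADD1, 2 of SPTAN1 and 3 of ANK2, the median delta PSI was -0.0555, with a range from -0.315 to 0.0414. The ADD3 exon of 96 nt is not among them, since its mean SCRM PSI of 0.0481 lay just under the limit of 0.05. Its delta PSI of 0.214 has the opposite sign to this median. Mean PSI was lower with RBFOXi in 4 of the 6, and in 3 of them the libraries did not overlap. Over 8783 intermediate exons of all genes the median was 0.0110, and the libraries did not overlap in 29.5%. With 1 library left out, the median over the 6 ranged from -0.0643 to -0.0180, and it was -0.0180 without RBFOXi replicate 1 and -0.0297 without SCRM replicate 2. Of the 6, the exon of 34 nt alone has a length that is not a multiple of 3. The ANK2 exons of 84 and 93 nt share reads, so the 6 are not independent.

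UGCAUG on the strand of the gene stood within 300 nt of 13 of the 28 tested member exons (46.4%), against 15.8% of the 30617 tested exons of all genes. It lay upstream of 10 and downstream of 3, where all tested exons had it upstream in 8.16% and downstream in 8.36%. The ADD1 exons of 252 and 345 nt share 1 copy, since they share their upstream intron. The pentamer GCAUG, which every UGCAUG contains, stood near 16 of the 28 (57.1%), against 42.0% of all tested exons. CAUGCA, the reverse complement of UGCAUG, stood near 8 of the 28 (28.6%), against 11.9%. Among the 10 exons with an upstream copy, delta PSI exceeded 0.1 in size in the ADD3 exon of 96 nt alone. Of the 3 with a downstream copy it did so in the ANK2 exon of 93 nt alone. The others were the ANK3 exon of 7812 nt and the SPTAN1 exon of 51 nt, whose PSI was at most 0.0455 in every library. The motif was searched by its letters, and a match does not show binding.

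**Figure D4:**
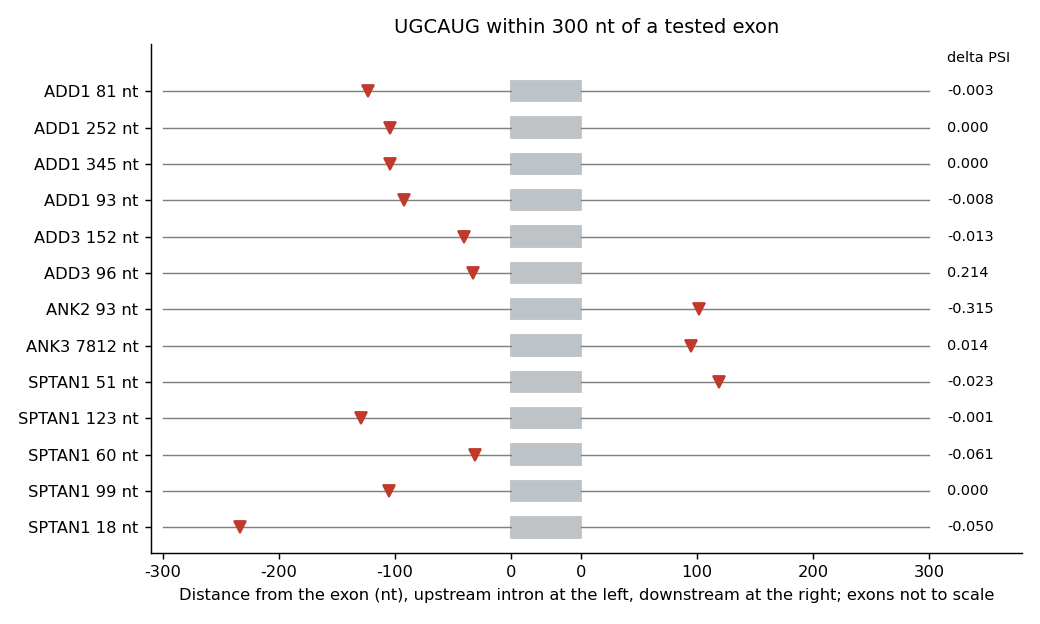
Position of UGCAUG (triangles, first base of the motif) in the 300 nt of intron on each side of the 13 tested exons that have one, with distance from the exon in nt on the horizontal axis and delta PSI at the right. The ADD3 exons of 96 and 152 nt and the SPTAN1 exon of 60 nt have the closest copies, beginning 31 to 41 nt before the exon, and delta PSI there was 0.214, -0.013 and -0.061.

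Mutually exclusive pairs compare counts of exons at different places in a gene. In 12 of the 15 pairs of ADD1, SCRM replicate 1 had the lowest PSI of the 4 libraries. Several of the 15 share exons and counts, so they are not independent. The pair with the largest delta PSI had 0.698 and 0.709 with RBFOXi and 0.611 and 0.701 with SCRM (delta PSI 0.0477). SCRM replicate 1 alone lay low there, and SCRM replicate 2 lay between the RBFOXi libraries. The largest in ADD3 had 0.542 and 0.581 with RBFOXi and 0.598 and 0.603 with SCRM (delta PSI -0.0387, groups apart). The SPTAN1 pair had 0.444 and 0.413 with RBFOXi and 0.435 and 0.437 with SCRM, with overlapping groups. As skipped exons, the exons of these ADD1, ADD3 and SPTAN1 pairs had a PSI of at least 0.971 in every library. The values of the pairs therefore compare coverage of exons mostly present together, rather than a choice between them. The part of the uneven coverage in this and in the other results was not tested.

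Of 41 other genes of the spectrin and actin skeleton and its partners, with RBFOX1, RBFOX2 and RBFOX3, 24 had a tested skipped exon. They held 218 tested events with a median delta PSI of -0.000469. Of these, 3 were called, against 0.0682% of all tested events. The 3 were in the EPB41 family, whose proteins join spectrin to actin. These genes too were listed with earlier results of these data known, so nothing is read from this count. The EPB41L1 exon of 411 nt had a PSI of 0.384 and 0.444 with RBFOXi and 0.754 and 0.762 with SCRM (delta PSI -0.344). The EPB41L2 exons of 63 and 147 nt had a delta PSI of -0.405 and -0.438. Among events with a mean of at least 50 counts, the largest differences that limma did not call were in EPB41 and NFASC. A 63 nt exon of EPB41 had a delta PSI of -0.362, with 21 counts in SCRM replicate 1. A 237 nt exon of NFASC, an adhesion molecule bound by ankyrin, had 0.319, with a PSI of 0.523 and 0.838 in the SCRM libraries.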

How the data were processed

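RNA-seq of 4 U87MG libraries, 2 transfected with RBFOXi and 2 with SCRM, was analysed from 5 deposited tables of splicing events. The authors mapped the reads on hg19 (STAR 2.4.2a) and used rMATS with UCSC known genes to count reads for each event. The deposited values used here are inclusion and skipping counts per library, not normalized, and the effective lengths of both forms. The authors' p-values, FDR, inclusion levels and inclusion level differences were not used. They include 2 columns of per-sample values in each of the 5 tables. Counts over skipped exon events summed to between 114415530 and 136097319 per library, with a read counted in every event it fits, and the spread between libraries was used in place of counting error.

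The log2 odds of inclusion (pseudocount 0.5) entered a linear model in limma 3.58.1 (R 4.3.3) with condition as the only term and the variance modelled on how much information an event holds. Adjustment was by Benjamini-Hochberg, separately per event type. Skipped exon events with the same exon ends counted as 1 exon, represented by the tested event with the most counts. Intron and exon sequence came from GRCh37, and transcript annotation from its GENCODE lift. Python 3.11.15, pandas 2.3.3 and numpy 2.4.6 were used.

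The members, the gene lists and the tests were chosen with earlier results of these data known. Values in every library were given for intermediate exons, called events and exons of at least 500 nt, for the event of each other type and gene with the largest delta PSI at a mean of at least 50 counts, and for other exons where said. Of the related genes, called events and the 5 largest delta PSI at a mean of at least 50 counts were named. Alternatives covered the pseudocount, the filter, the test, a replicate block, the smallest delta PSI called, plain shares in place of PSI, the event chosen for an exon, the intron window and each library left out.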

Additional observations from a re-analysis of the deposited data

How the results depend on the processing

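The call of the ADD3 exon of 96 nt was lost with a pseudocount of 0.1 (delta PSI 0.214, adjusted p 0.498), where 0 of the 6 genes' events and 1 of all events were called. Of the 6 genes, 2 events were called with a pseudocount of 1, a filter of 1 count in every library, the quasi-binomial F test and the replicate block, the second being the ANK2 exon of 93 nt (delta PSI -0.315, adjusted p 0.0295, 0.0324, 0.0108 and 3.98e-05). Over all genes, 40, 44, 43 and 119 events were called with the pseudocount of 1, that filter, the F test and the replicate block, against 27. Leaving out 1 library, the 6 genes had 0 to 1 call and all genes 3 to 63. Delta PSI then ranged from 0.159 to 0.269 for ADD3, with the call kept only without RBFOXi replicate 1, and from -0.346 to -0.285 for ANK2, with a call only without RBFOXi replicate 2. The median of the intermediate exons ranged from -0.0643 to -0.0180, the latter without RBFOXi replicate 1. It was -0.0887 for exons with a SCRM PSI from 0.1 to 0.9. As plain shares of inclusion counts, the difference was 0.321 for ADD3, -0.435 for ANK2 and 0.423 for the ANK3 exon of 7812 nt, whose long inclusion form PSI divides by. The ADD1 exon of 34 nt ranged from -0.0105, a reversal, without RBFOXi replicate 2 to 0.0272 without RBFOXi replicate 1. Of 66 values of the other named exons under these settings, 65 kept their direction. This was fixed in advance where only the pseudocount, filter, test or block changed, since delta PSI does not depend on them. With all 4 libraries in the fit, none of these exons was called in any setting. A fit that leaves out 1 library takes the spread of that group from the other group. The cause of these changes was not tested. The motif count was 12 to 16 of 28, but the share of all tested exons changed with the setting. UGCAUG within 200, 300 and 500 nt stood near 42.9%, 46.4% and 57.1% of the members, against 11.4%, 15.8% and 23.4% of all. GCAUG within 300 nt stood near 57.1% against 42.0%. The absence of calls in the other event types held in the settings run.

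The labels number the libraries but do not say what a number shares. Same-numbered libraries deviated together with a correlation of 0.0944 over tested events, with 2 pairs, so the replicate block is an alternative only. Depth limits ANK2 and ANK3 most, with as few as 5 counts in a tested library.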
